A study of Mus musculus with 8 samples.

Results

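Near-projecting (NP) glutamatergic nuclei of cortical layers 5 and 6 were taken from the snRNA-seq libraries of 8 mouse cortices by their raw counts. These counts are of unique molecular identifiers (UMIs), tags that keep copies of 1 captured RNA molecule from being counted again. A nucleus was a member when it had at least 1 UMI of *Slc17a7*, at most 1 of *Gad1* and *Gad2* together, at least 8 of *Tshz2*, at least 2 of *Vwc2l* and at most 1 of *Cux2*. Of 54343 nuclei kept, 26261 met the conditions on *Slc17a7* and the *Gad* genes and are called glutamatergic here, and 846 met all of them. Members made up 3.22% of the glutamatergic nuclei and 1.56% of the nuclei kept. The levels of these 6 genes selected the members, so they are given as a description and support nothing else.

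NP neurons are excitatory neurons of the deep cortex whose axons end mostly close to the cell body. They differ in this from the corticothalamic (CT) neurons of layer 6 and the extratelencephalic (ET) neurons of layer 5, which send long axons out of the cortex. *Ifnar1* encodes a subunit of the receptor for type I interferons, which signals through Janus kinases and STAT proteins to interferon response genes.

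The 4 Wt mice carried intact *Ifnar1* and the 4 *Ifnar1*-/- mice lacked it in all cells, so an effect that arises within the neuron and an effect that reaches it from other cells cannot be told apart. Each genotype had 2 females (F1, F2) and 2 males (M1, M2), all labelled C57BL6J, naive and 6 weeks old, and the *Ifnar1*-/- line had been backcrossed to C57BL/6J. The comparison asks which genes of NP nuclei differ in level when type I interferon signaling is lost. The total UMIs per library were 55053026, 50295802, 58423423 and 46076959 in Wt F1, F2, M1 and M2, and 44063346, 46079274, 58057084 and 48344790 in *Ifnar1*-/- F1, F2, M1 and M2.

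Members numbered 101, 91, 137 and 94 in Wt and 113, 81, 129 and 100 in *Ifnar1*-/-, in the same order of mice. Summed over the members of a library this gave 1148666, 873361, 967559 and 807875 UMIs in Wt and 599428, 909279, 1093253 and 909837 in *Ifnar1*-/-. Levels below are CPM, the UMIs of a gene per 1000000 UMIs of the set of nuclei in a library, with the mouse as the replicate. The set in *Ifnar1*-/- F1 was the shallowest, so 1 UMI weighed most there. Across the 56780 barcodes, 384 occurred in more than 1 library, and 1 of these was among the members. Scrublet called 2267 of the nuclei kept as doublets, of which 28 were members, and they were kept because the choice has no doublet step.

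*Ifnar1* itself (ENSMUSG00000022967, chromosome 16 from 91485238 to 91507441) had 19, 11, 16 and 15 UMIs in the members of Wt and 8, 19, 29 and 11 in those of *Ifnar1*-/-. The genotypes overlapped, at 16.1 ± 2.50 CPM (SD, n = 4) and 18.2 ± 6.77 (SD, n = 4), with a log2 fold change of 0.23 (edgeR's quasi-likelihood test with the Benjamini-Hochberg method, adjusted p = 1.00). Where along *Ifnar1* RNA these UMIs arose cannot be seen in the deposited counts, so the values do not check the genotype labels.

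The label was checked with 14 NP marker genes, of which 13 had UMIs in the members and 11 were higher in the members than in the 25415 other glutamatergic nuclei. Among the 11 were *Tshz2* and *Vwc2l*, which had selected the nuclei, so only the other markers bear on the label. The 3 markers that go with the label, *Tshz2*, *Vwc2l* and *Fezf2*, stood at 3439, 799.5 and 45.4 CPM in the members and at 224, 42.0 and 11.5 in the others, although the first 2 had selected the nuclei. *Fezf2*, a transcription factor gene of deep-layer neurons that the choice did not use, had a UMI in 32.0% of the members and in 8.91% of the other glutamatergic nuclei, at median depths of 7442 and 8955 UMIs. In nuclei with layer 6 CT markers it had a UMI in 18.6%, at a median depth of 9199 UMIs and 21.6 CPM pooled over libraries. The gap to these deep-layer nuclei was thus smaller. Among the rest were *Slc17a8*, a vesicular glutamate transporter gene (27.1 ± 11.3 CPM, SD, n = 8, against 0.629), the thyrotropin-releasing hormone receptor gene *Trhr* (46.4 ± 5.27 against 7.31), *Rapgef3*, whose product is a guanine nucleotide exchange factor activated by cyclic AMP (49.8 ± 10.9 against 4.76), and *Lypd1* (155 ± 32.9 against 31.1). *Sla2*, *Etv1*, *Trp53i11* and *Trh* were higher too, *Met* and *Cpa6* were not, and *Cpne7* had 0 UMIs. NP nuclei and other nuclei were compared as a description, without a test.

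The members were not uniform. For each nucleus the 15 nearest neighbors were found among the glutamatergic nuclei on variable genes, leaving out the 6 genes that selected the members and *Gm26883*, which lies within *Tshz2*. A member had a median of 13 neighbors that were members, and another glutamatergic nucleus had a median of 0. Of the members, 551 (65.1%) had at least 8 such neighbors and are called core members, while 295 (34.9%) had fewer and are called edge members. The core had a median of 6637 UMIs per nucleus and the edge 10159, and Scrublet called 2.00% and 5.76% of them as doublets. This division was made after the data had been seen.

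Several NP markers were higher in the core than in the edge. Markers outside the choice were not left out of the search for neighbors, so part of this may be built in. *Lypd1* stood at 244 CPM in the core and 48.7 in the edge, *Trhr* at 76.9 and 10.5, *Slc17a8* at 43.1 and 7.94, and *Fezf2* at 62.9 and 24.4. The edge held more of several genes that were low in the core, such as *Fam19a1* (2182 CPM against 173), *Fstl4* (272 against 20.3) and the receptor phosphatase gene *Ptprk* (282 against 23.8). In other glutamatergic nuclei these stood at 1496, 339 and 340 CPM, so in these genes the edge was closer to those nuclei than to the core. They were picked from the genes with the highest ratios of edge to core. Among the same genes, *Gm2164* stood at 240 CPM in the edge and 60.3 in other glutamatergic nuclei, and *Cdh20* at 171 and 78.8. Against other glutamatergic nuclei the edge was still higher in several NP genes, with *Slc17a8* at 7.94 CPM against 0.629, *Fezf2* at 24.4 against 11.5, *Lypd1* at 48.7 against 31.1 and *Grik1*, a kainate receptor gene, at 228 against 99.3. In nuclei with layer 6 CT markers, pooled over libraries, *Fezf2* stood at 21.6 CPM, near its level in the edge. *Slc17a8*, *Lypd1* and *Grik1* stood lower there than in the edge, at 0.321, 10.3 and 11.4 CPM. The NP genes outside the choice were thus weaker in about 1 in 3 members. The members are named below by the choice (NP nuclei), and core values are given beside them for some genes only. The core share of members was 64.4%, 74.7%, 62.0% and 66.0% in Wt and 71.7%, 53.1%, 63.6% and 65.0% in *Ifnar1*-/-.

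**Figure D1:**
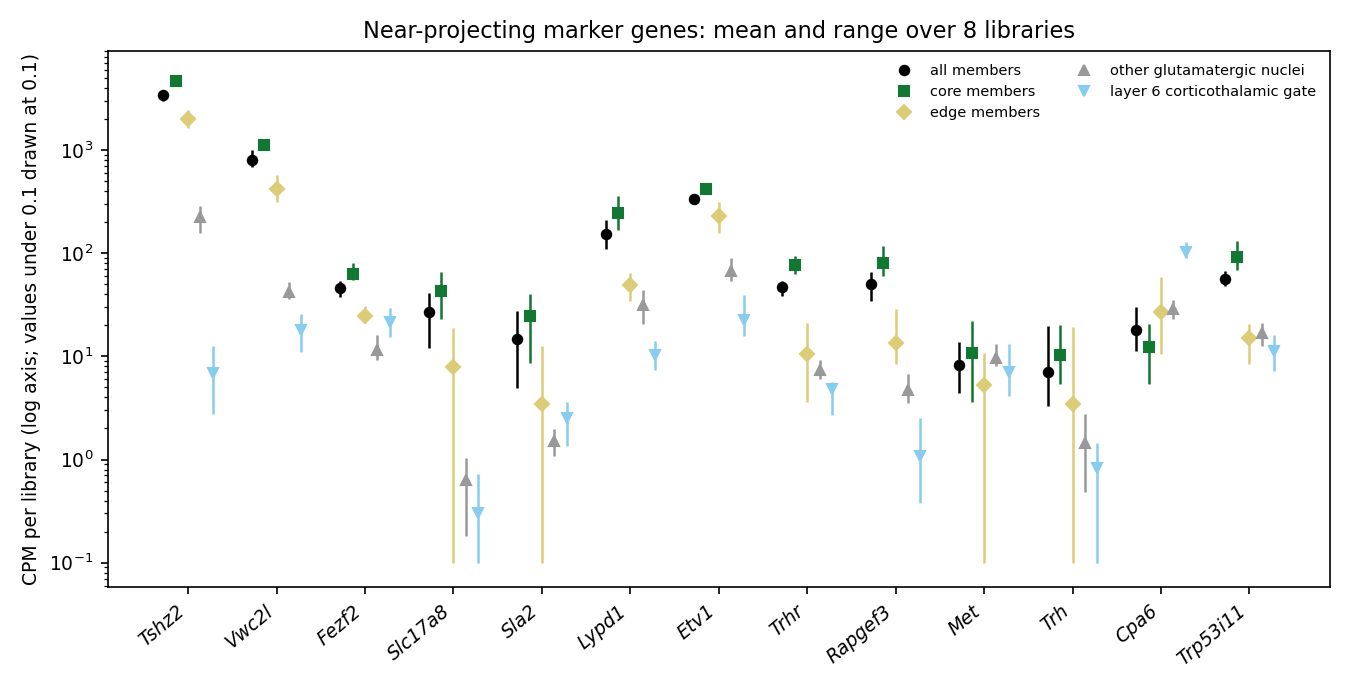
Level of NP marker genes in CPM, on a log axis, as the mean and range over 8 libraries in all members, core members, edge members, other glutamatergic nuclei and layer 6 CT nuclei, with values under 0.1 drawn at 0.1. Core members lie above edge members for *Lypd1* (244 against 48.7 CPM) and *Trhr* (76.9 against 10.5).

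The values at the limits of the choice show how it divided the nuclei. Just inside it, 67 members had 8 to 10 *Tshz2* UMIs and 152 had 2 *Vwc2l* UMIs, and over all members the medians were 26 (range 8 to 148) and 5 (range 2 to 48). Just outside it, 54 nuclei with 5 to 7 *Tshz2* UMIs met the other conditions and had a median of 1 member among their 15 neighbors. Another 222 nuclei had 1 *Vwc2l* UMI, with a median of 2 member neighbors, and 214 failed on *Cux2* alone, also with a median of 2. Few of the nuclei just outside thus lay among the members, and the largest group, 1427 nuclei with *Tshz2* but 0 *Vwc2l* UMIs, had a median of 0.

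The genes of the next lines are single examples from those with the highest ratios to other glutamatergic nuclei, and no class of genes was tested among them. *Kcnip1*, which encodes a calcium-binding subunit of A-type potassium channels, stood at 298 ± 35.1 CPM (SD, n = 8) in NP nuclei and 15.6 in the others, with 516 in the core. *Nxph1*, a neurexophilin gene whose secreted product binds neurexins, stood at 701 CPM against 43.1, its relative *Nxph3* at 76.0 against 10.9, and the cerebellin gene *Cbln2*, another secreted neurexin ligand, at 53.3 against 7.75. The actin-bundling gene *Lcp1* had 79.4 CPM against 4.94. These genes were higher in NP nuclei in 8 of 8 libraries. *Gm26883*, at 2631 CPM against 185, lies within *Tshz2* on the opposite strand, and whether counting kept the strands apart is not stated in the sources used here, so its UMIs cannot be told apart from those of a gene that selected the nuclei. *Stard5* (199 CPM against 13.0) overlaps *Il16* on the opposite strand and is uncertain in the same way. Pooled over libraries, *Nxph1* stood at 1178 CPM in the core and 129 in the edge, *Lcp1* at 138 and 8.63, and *Stard5* at 330 and 43.2.

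Some genes of receptors for glutamate and for neuromodulators stood higher as well. *Grik1*, which encodes a kainate receptor subunit, stood at 629 ± 45.1 CPM (SD, n = 8) in NP nuclei, 99.3 in other glutamatergic nuclei and 11.6 in nuclei with layer 6 CT markers, and *Neto2*, which encodes an auxiliary subunit of kainate receptors, at 306 against 70.7. In the core *Grik1* reached 954 CPM and in the edge 228. Of 25 glutamate receptor genes 16 were higher in NP nuclei than in the others, with *Grm4* at 60.1 CPM against 18.7 and *Grik3* at 411 against 184. The most abundant of them, *Grm7*, had 2641 CPM.

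Among 50 neuromodulator receptor genes 19 were higher in NP nuclei. The serotonin receptor genes *Htr2c* (377 CPM against 96.8) and *Htr4* (96.6, or 5.37 times the level in the others) and the muscarinic receptor gene *Chrm2* (276 against 53.6) had the larger levels, and the orexin receptor gene *Hcrtr2* (46.6 against 8.60) and the nicotinic subunit gene *Chrna5* (12.0 against 2.12) had smaller ones. Pooled over libraries, *Htr2c* stood at 581 CPM in the core and 125 in the edge, and *Chrm2* at 444 and 78.3. The muscarinic receptor gene *Chrm3* (380.3 against 766) and the serotonin receptor gene *Htr2a* (13.2 against 34.9) stood lower. All 50 genes had UMIs in NP nuclei, and the part of these UMIs from RNA of other cells was not tested. *Grp*, which encodes gastrin-releasing peptide, stood at 58.6 CPM against 9.32.

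Of 49 potassium channel genes 25 were higher in NP nuclei, and *Kcnh8* (34.5 CPM against 7.54) followed *Kcnip1* among them. Of 68 axon guidance and adhesion genes 26 were higher. The netrin receptor gene *Dcc* stood at 2142 CPM against 711, the Robo ligand gene *Slit1* at 235 against 74.7 and the semaphorin gene *Sema5b* at 139.8 against 39.4. Of 42 transcription factor genes of cortical layers 22 were higher, among them *Etv1* (337 CPM against 67.5), *Tle4*, which encodes a corepressor of deep-layer neurons (416 against 138), and *Bcl11b*, a gene of subcerebral projection neurons (224 against 112), while *Nfia* stood lower (59.0 against 198).

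Of all 26264 genes with UMIs in other glutamatergic nuclei 45.6% were higher in NP nuclei, and 61.7% of the 9329 genes tested below, so the counts of higher genes show nothing particular to these lists, and the values stand for single genes.

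At the other end, the 15 genes with the lowest ratios were lower in NP nuclei in 8 of 8 libraries. Beside *Cux2*, which had selected the nuclei, they included *Col19a1* (5.97 times lower), the heparan sulfate enzyme gene *Ndst4* (5.74 times), the adhesion gene *Nectin3* (4.83 times), the phosphodiesterase gene *Pde7b* (4.79 times) and the guidance ligand gene *Sema3a* (3.60 times). *Erbb4*, which encodes a neuregulin receptor, stood at 54.4 CPM against 185.

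Markers of other cell types were summed over each list. For the neighboring layers, layer 6 CT markers came to 1940.4 CPM in NP nuclei and 1133 in other glutamatergic nuclei, most of it *Hs3st4* (1395 CPM), while *Foxp2*, the transcription factor gene that marks CT neurons, stood at 113 CPM in NP nuclei and 117 in other glutamatergic nuclei, and was higher in NP nuclei in 2 of 8 libraries. Pooled over libraries, *Foxp2* stood at 159 CPM in the core and 61.3 in the edge, against 116 in other glutamatergic nuclei. *Hs3st4* stood at 2054 CPM in the core and 587 in the edge, against 841. The core was thus higher than the other nuclei in both genes and the edge lower. The 807 CPM of *Foxp2* in CT nuclei follows from their selection on it. Layer 5 ET markers came to 279.5 CPM, most of it *Bcl11b*, which stood higher in NP nuclei than in the others, as given above. Layer 2/3 markers came to 200.6 CPM against 495 in the others, most of it *Cux1*. Markers of GABAergic neurons summed to 177, 49.2, 131 and 208 CPM in Wt and 135, 145, 77.7 and 108 in *Ifnar1*-/-, with *Adarb2* the most abundant, and those of oligodendrocytes to 94.0, 286, 351 and 231 in Wt and 190.2, 79.2, 168 and 278 in *Ifnar1*-/-. The genotypes overlapped in both, and all 10 and 6 genes of these lists had UMIs. Microglial markers averaged 125 ± 25.7 CPM (SD, n = 8), with *P2ry12* the most abundant. Those of astrocytes averaged 644 ± 69.3, of which *Slc1a2* gave 633. Vascular markers averaged 7.08 ± 2.75, with *Pecam1* the most abundant. The part of RNA from other cells in the results below was not tested.

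NP nuclei made up a like share of the glutamatergic nuclei in both genotypes. The share was 3.72%, 3.04%, 3.08% and 3.01% in Wt and 3.12%, 4.23%, 3.15% and 2.98% in *Ifnar1*-/-. The groups overlapped, with Wt F1 and *Ifnar1*-/- F2 standing above the others of their genotype. The means were 3.21% ± 0.340 (SD, n = 4) and 3.37% ± 0.578 (SD, n = 4), a difference of 0.156 percentage points (exact permutation test, two-sided, p = 0.6, where 0.0286 is the smallest that 4 mice against 4 allow). With nuclei thinned to 4000 UMIs, those with fewer left out, and at least 4 *Tshz2* and 1 *Vwc2l* UMIs asked for, the shares were 3.61% ± 0.267 and 4.01% ± 0.628 (SD, n = 4), a difference of 0.402 (exact permutation test, two-sided, p = 0.314). Without doublets the difference was 0.0910 (exact permutation test, two-sided, p = 0.714). Core members made up 2.14% ± 0.230 and 2.11% ± 0.161 of the glutamatergic nuclei. Without *Ifnar1*-/- F2 the difference in the share of all members was -0.130 percentage points, and its sign is therefore not settled.

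The depth of NP nuclei varied more between mice than between genotypes. The median UMIs per NP nucleus were 10071, 7782, 6189 and 7216.5 in Wt and 4565, 10287, 7248 and 7980.5 in *Ifnar1*-/-, a difference in means of -294.5 (exact permutation test, two-sided, p = 0.914). *Ifnar1*-/- F1 had the lowest and *Ifnar1*-/- F2 the highest value. Without Wt F1 the difference was 457.6 and without *Ifnar1*-/- F1 it was 690.5. Mitochondrially encoded genes took 0.191%, 0.329%, 0.455% and 0.521% of UMIs in Wt and 0.400%, 0.161%, 0.430% and 0.916% in *Ifnar1*-/- (exact permutation test, two-sided, p = 0.686). Without *Ifnar1*-/- M2, which had the highest share, the difference of 0.102 percentage points became -0.0440.

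In NP nuclei 9 of 9329 genes tested (0.0965%) differed between genotypes at a Benjamini-Hochberg adjusted p under 0.05 in edgeR's quasi-likelihood test, 5 of them higher and 4 lower in *Ifnar1*-/-. DESeq2 called 10, and 253 genes in edgeR and 196 in DESeq2 were at an unadjusted p under 0.05, fewer than the 466 and 1066 that chance alone would give. In edgeR with sex as a covariate 528 genes were, and with the replicate block 470. These counts are not below 466, so the shortfall depends on the model. Without the nuclei that Scrublet called as doublets 8 of the 9 were called, and *Pkd1l2* had too few UMIs for the test. The list was led by *Cntfr*, which encodes the ligand-binding alpha subunit of the receptor for ciliary neurotrophic factor, and by 4930578G10Rik, a protein-coding gene under a provisional symbol. For all 9 genes the genotypes did not overlap in CPM, which is a property of genes chosen by this test.

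*Cntfr* (ENSMUSG00000028444, chromosome 4 from 41657498 to 41697089) had 167, 104, 114 and 95 UMIs in Wt and 16, 26, 32 and 32 in *Ifnar1*-/-. In CPM this was 145, 119, 118 and 118 in Wt and 26.7, 28.6, 29.3 and 35.2 in *Ifnar1*-/-, so that each Wt mouse stood well above each *Ifnar1*-/- mouse. The log2 fold change was -2.04 (standard error 0.16, adjusted p = 1.45e-04 by edgeR). In the core alone *Cntfr* fell by 2.60 on the log2 scale (adjusted p = 1.87e-04 by edgeR), to between 13.8 and 40.5 CPM from between 159 and 230.2. In the edge the log2 fold change was -0.83 and did not pass (adjusted p = 1.00 by edgeR, the highest over 19 alternatives, the lowest being 9.90e-15). *Cntfr* was the one of the 9 genes that shared no stretch of 31 bases of its transcripts with transcripts of another gene.

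4930578G10Rik (ENSMUSG00000054885, chromosome 4 from 42735545 to 42846248) rose. It stood at 241, 231, 221 and 204 CPM in Wt and at 744, 621, 573 and 743 in *Ifnar1*-/-, with little spread within either genotype. The log2 fold change was 1.59 (standard error 0.13, adjusted p = 1.95e-04 by edgeR). In the core the levels were 229, 218, 219.6 and 165 CPM in Wt and 966, 870.3, 776 and 982 in *Ifnar1*-/-, a log2 fold change of 2.13 (adjusted p = 1.24e-05 by edgeR). In the edge it was 0.71 and did not pass (adjusted p = 0.177 by edgeR, the highest over 19 alternatives, the lowest being 2.64e-20).

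*Gm2163* (ENSMUSG00000095779, chromosome 4 from 42466752 to 42589938), another protein-coding gene under a provisional symbol, stood at 441, 490.1, 333 and 392 CPM in Wt and at 1158, 872, 695 and 873 in *Ifnar1*-/-. Its log2 fold change was 1.14 (standard error 0.18, adjusted p = 0.0422 by edgeR) in all members and 1.49 in the core (adjusted p = 8.67e-04). The call was lost with 6 of the 8 mice left out in turn and kept without Wt F2 or *Ifnar1*-/- M1, with adjusted p between 0.0125 and 0.211. In the edge the log2 fold change was 0.53 and did not pass (adjusted p = 1.00 by edgeR). *Gm12394*, with 226, 224, 105 and 120.1 CPM in Wt and 1038, 506, 302 and 560.5 in *Ifnar1*-/-, had a log2 fold change of 1.84 and did not pass (adjusted p = 0.267 by edgeR). In both genotypes the females F1 and the males M1 lay far apart. *Gm12394* passed with sex as a covariate (adjusted p = 4.80e-05), with the replicate block (3.49e-05), in the core (log2 fold change 2.23, 0.0211) and without *Ifnar1*-/- M1 (0.0339), within a range of 4.17e-12 to 1.00 over 19 alternatives.

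**Figure D2:**
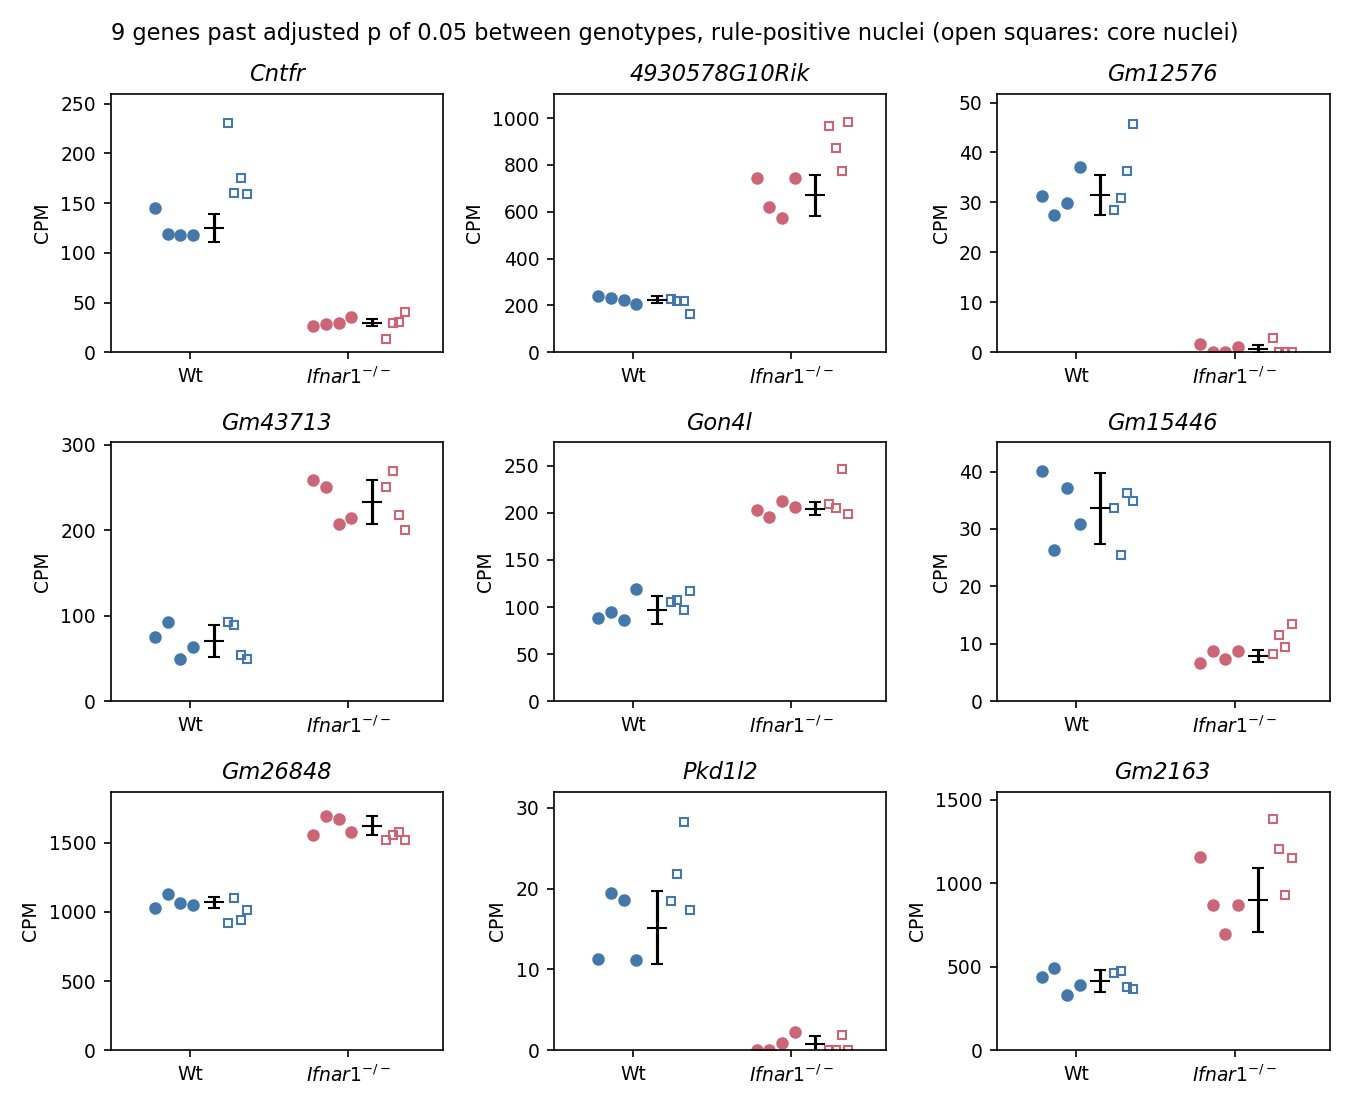
CPM of genotype-associated genes in NP nuclei of each mouse, with filled circles for all members, open squares for core members and black bars for the mean ± SD of all members (n = 4 per genotype). For *Cntfr* the Wt circles lie between 118 and 145 CPM and the *Ifnar1*-/- circles between 26.7 and 35.2.

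These 4 genes lie within 1199 kb of chromosome 4 (GRCm38 coordinates of the GENCODE vM21 annotation), with *Cntfr* lower and the other 3 higher in *Ifnar1*-/-. From 40 to 45 Mb, a window set after the values had been seen, 42 genes were tested. The other 38 had a median log2 fold change of -0.02 and ranged from -0.35 to 0.53. None of the 38 was called by edgeR or DESeq2, and 1 was at an unadjusted p under 0.05 in edgeR, *Phf24* (0.53), which starts at 42916660, the next gene tested after *Gm12394*, and is among the genes called by limma in the core below. 4930578G10Rik and *Gm12394* overlap on opposite strands from 42781928 to 42846248, so the UMIs of the pair cannot be told apart there. Of the 31-base stretches in the transcripts of *Gm2163*, 93.2% also occur in transcripts of other genes, against 63.7% for *Gm12394* and 29.1% for 4930578G10Rik, so how reads of near-identical copies were assigned could bear on all 3, and this was not tested.

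**Figure D3:**
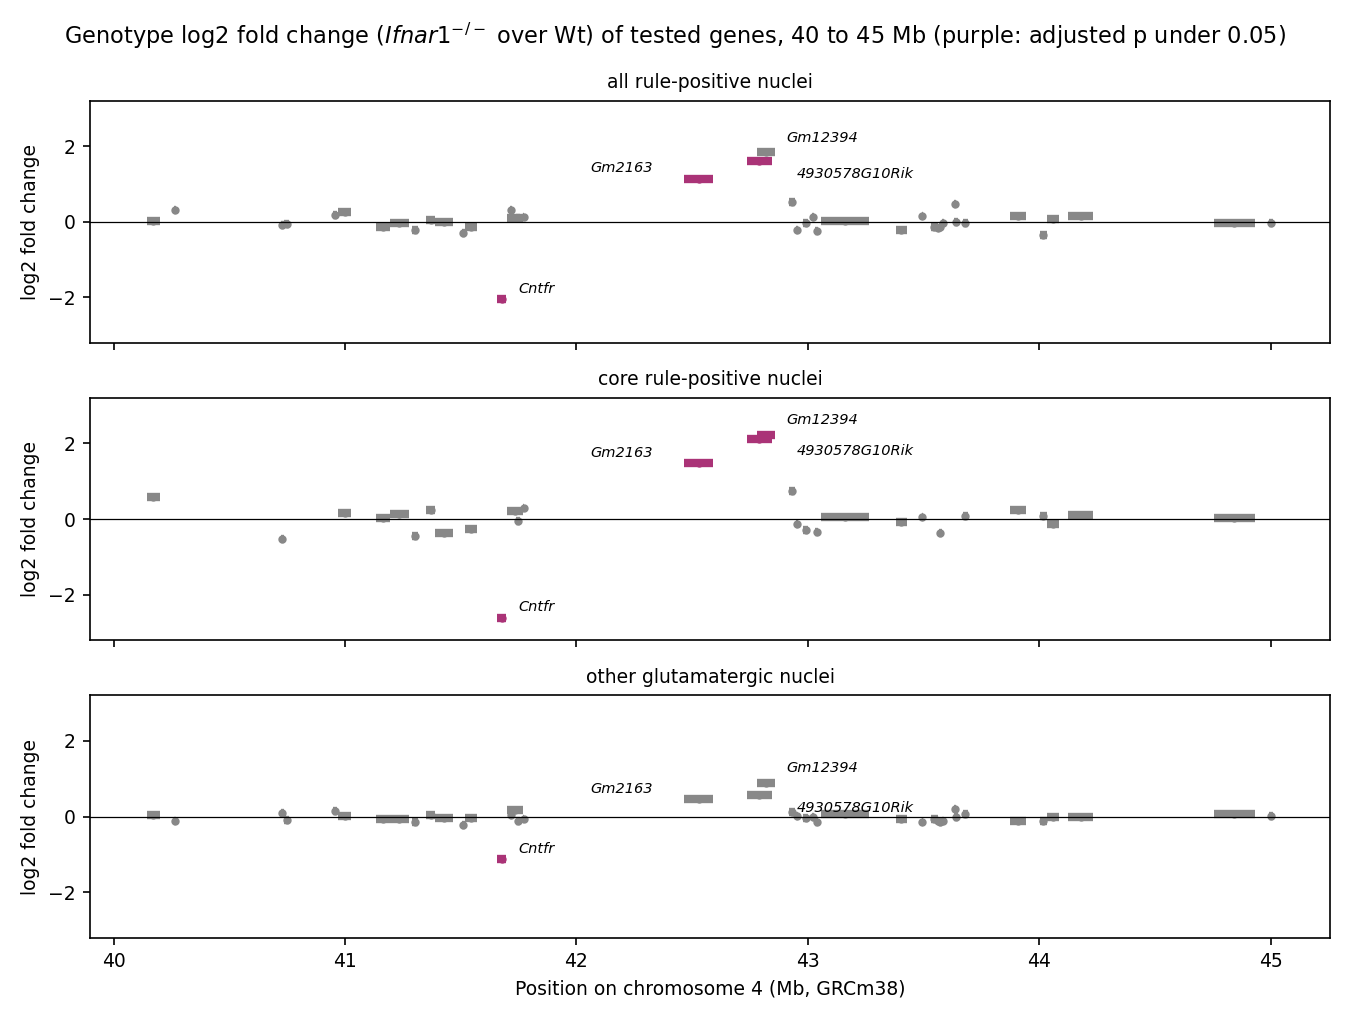
Genotype log2 fold change (*Ifnar1*-/- over Wt) against position for tested genes between 40 and 45 Mb of chromosome 4. The top panel shows the 42 genes in all members, the middle panel core members where tested, and the bottom panel other glutamatergic nuclei. Genes past an adjusted p of 0.05 are in purple. In the top panel *Cntfr* at -2.04 and 4930578G10Rik at 1.59 stand apart from 38 other genes that lie between -0.35 and 0.53.

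The remaining called genes included 5 of the 8 that a previous look at all glutamatergic nuclei of these mice had named by genotype, so their direction is no independent support. *Gm12576*, a lincRNA gene, had 36, 24, 29 and 30 UMIs in Wt and 1, 0, 0 and 1 in *Ifnar1*-/- (adjusted p = 3.30e-04 by edgeR), a ratio of 55.0 (95% counting interval 14.9 to 459.6). *Pkd1l2*, a polycystin family gene, had 57 UMIs in Wt and 3 in *Ifnar1*-/- (adjusted p = 0.0252 by edgeR), a ratio of 17.6 (95% counting interval 5.72 to 87.7), and it lost its call with each of the 8 mice left out in turn (adjusted p up to 0.138). *Gm15446* (33.6 ± 6.18 CPM in Wt against 7.90 ± 1.07, SD, n = 4, adjusted p = 0.00550 by edgeR) was lower in the edge too, and in the core the log2 fold change of -1.55 did not pass (adjusted p = 0.130 by edgeR, the highest over 18 alternatives, the lowest being 2.84e-05). *Gon4l* and *Gm43713*, which lies within it on the opposite strand and cannot be told apart from it here, rose in the core, the edge and all members, *Gon4l* from 96.9 CPM to 204.5 and *Gm43713* from 70.3 to 233. Transcripts of other genes also hold 57.8% of the 31-base stretches of *Gon4l*, 86.9% of those of *Gm43713* and 43.6% of those of *Gm15446*. How reads of such copies were assigned could bear on these genes as well, and this was not tested. *Gm45388* had 0 UMIs in Wt and 17 in *Ifnar1*-/-, at least 6.13-fold higher when 0 is replaced by a floor of 3 UMIs for the group, and *Selenbp2* had 2 and 17, a ratio of 9.19 (95% counting interval 2.18 to 82.0), and neither had enough UMIs to be tested.

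*Gm26848*, a lincRNA gene on chromosome 17 from 6314199 to 6493180, rose from 1067 ± 42.6 CPM to 1622 ± 67.3 (SD, n = 4), a log2 fold change of 0.62 (adjusted p = 0.0202 by edgeR). It kept its call with 1 of the 8 mice left out in turn, Wt F2, and the adjusted p reached 0.137 without Wt F1. In other glutamatergic nuclei its log2 fold change was also 0.62 (adjusted p = 0.0610 by edgeR). *Megf11*, which encodes a transmembrane protein with EGF-like repeats that acts in the spacing of retinal neurons, did not pass. It had 11.3, 10.3, 15.5 and 6.19 CPM in Wt and 26.7, 40.7, 50.3 and 27.5 in *Ifnar1*-/-, without overlap. The log2 fold change was 1.74 (adjusted p = 0.0821 by edgeR), and it passed in DESeq2 (0.0205), with sex as a covariate (0.00951) and with the replicate block (0.00600), within a range of 4.17e-04 to 0.375 over 17 alternatives. *Megf11* came mostly from the edge, with 2.01 to 21.2 CPM in the core.

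The other genes with the lowest unadjusted p were also short of the threshold. *Fkbp5*, a glucocorticoid-responsive cochaperone gene, had a log2 fold change of -0.85, *Fyb2* of 1.12, *Gm15398* of 1.04, *Gm36388* of 0.93, the guidance gene *Ntng1* of 0.66, *Rasgef1b* of 0.60, the histone methyltransferase gene *Setdb1* of 0.54 and the synaptotagmin gene *Syt11* of 0.48, with adjusted p from 0.940 to 1.00 in edgeR. Over the alternatives *Gm15398* passed in 2 of 19, without a filter on low counts (adjusted p = 2.84e-05 by edgeR) and, just under the threshold, with sex as a covariate, and the other 7 passed in none. *Gm15398* lies within *Pcdh15* on the opposite strand and is uncertain. In the core 8 of 7186 genes (0.111%) were called, 7 of them shared with all members and *Gm12394* added. In the edge 3 of 6341 were called, *Gon4l*, *Gm43713* and *Gm15446*.

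The difference between NP nuclei and the other glutamatergic nuclei of the same mouse was tested itself. The genotype effect differed for 17 of 17549 genes (0.0969%) at a Benjamini-Hochberg adjusted p under 0.05 in edgeR, 13 upward and 4 downward in NP nuclei, with 857 at an unadjusted p under 0.05, where chance alone would give 877. The 4 genes of chromosome 4 were among them. 4930578G10Rik had a log2 fold change of 1.59 in NP nuclei and 0.57 in the others, a difference of 1.00 (standard error 0.09, adjusted p = 1.22e-12 by edgeR). *Gm12394* differed by 0.92 (1.84 against 0.90), *Gm2163* by 0.64 (1.14 against 0.47) and *Cntfr* by -0.97 (-2.04 against -1.13, standard error 0.17, adjusted p = 3.63e-04 by edgeR). In other glutamatergic nuclei *Cntfr* was lower in *Ifnar1*-/- as well, at 32.4 ± 6.28 CPM (SD, n = 4) against 71.5 ± 8.58 in Wt (adjusted p = 0.0390 by edgeR), 1 of 11 genes called among 18621 there (0.0591%).

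These 4 differences held in a limma fit on the log2 ratio of both classes per mouse, an alternative added after the data had been seen, which called 4 of 9328 genes (0.0429%), these 4. In the core that fit called 8 of 7185 genes (0.111%) and gave larger differences, 1.53 for 4930578G10Rik, 1.32 for *Gm12394*, 0.99 for *Gm2163* and -1.42 for *Cntfr*, and added *Lrrc4c* (-0.52), *Grik1* (-0.53), *Phf24* (0.59) and *March1* (-0.61). Against nuclei with layer 6 CT markers edgeR called 6 genes and none of these 4, whose differences were 0.44, 0.30, 0.11 and -0.06, so for these 4 genes nothing particular to NP nuclei is shown. The 6 included *Zfp804b* (1.00), *Pcdh15* (0.86), *Gm15398* (0.83) and *Mgat4c* (-0.52), each with an adjusted p of 0.00548 by edgeR. Adjusted p over 14 alternatives ranged from 5.80e-34 to 0.236 for 4930578G10Rik, 5.78e-23 to 0.841 for *Gm12394*, 8.49e-16 to 0.979 for *Gm2163* and 5.76e-10 to 1.00 for *Cntfr*.

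Of the other 13 genes called by edgeR, 9 were not called by limma on all members and 4 had too few UMIs for that fit. *Megf11* differed by 1.76 (1.74 against 0.09), *Zfp804b* by 0.70, the protocadherin gene *Pcdh15* by 0.60, *Gm15398* by 0.58, *Ntng1* by 0.58, *Rasgef1b* by 0.54, the diacylglycerol kinase gene *Dgkg* by 0.51, *Mgat4c* by -0.40 and the synaptic adhesion gene *Lrrc4c* by -0.35. Few UMIs lay behind the rest, with 6 in Wt and 51 in *Ifnar1*-/- for *Gm10635* (3.09), 6 and 28 for *Pkp2* (2.62), 7 and 28 for *Prph* (3.06), and 53 and 3 for *Ebf1* (-3.72). *Ebf1* had 27.9, 1.15, 19.6 and 1.24 CPM in Wt and 0, 0, 0.911 and 2.20 in *Ifnar1*-/-, so that Wt F1 and M1 gave nearly all of it and the genotypes overlapped. *Gm10635* came mostly from *Ifnar1*-/- F2 and M1 (17.6 and 28.4 CPM) and *Prph* from *Ifnar1*-/- M1 (17.4 CPM). The call of *Ebf1* was lost without Wt F1 (adjusted p = 0.304), and without *Ifnar1*-/- M1 those of *Gm10635* (0.423), *Prph* (0.648) and *Pkp2* (0.137) were lost, all by edgeR. *Pkp2* and *Prph* kept their call with 4 of the 8 mice left out in turn, *Rasgef1b* and *Dgkg* with 5 (adjusted p up to 0.152 and 0.153), *Ntng1* and *Lrrc4c* with 6 (up to 0.133 and 0.103) and *Mgat4c* with 7 (0.119), while *Megf11*, *Zfp804b* and *Pcdh15* kept it with all 8. In the core 8 of the 17 differences were called by edgeR, the 4 of chromosome 4 with *Zfp804b*, *Pcdh15*, *Gm15398* and *Lrrc4c*. The core level of *Zfp804b* was 8.40, 96.2, 28.2 and 65.3 CPM in Wt and 30.4, 29.9, 28.2 and 577 in *Ifnar1*-/-, so the genotypes overlapped and *Ifnar1*-/- M2 was far above the other mice. In *Pcdh15* and *Gm15398* the genotypes overlapped in the core too, with *Ifnar1*-/- M2 highest (1482 and 370.5 CPM), and limma in the core called none of these 3 (adjusted p = 0.970 each). Over all members the edgeR call of *Gm15398* was lost without *Ifnar1*-/- M2 (adjusted p = 0.103). In the core *Megf11* differed by 1.04 (adjusted p = 0.970 by edgeR), and *Ntng1*, *Rasgef1b*, *Dgkg*, *Mgat4c* and the 4 genes with few UMIs were not called either. The number of genes called ran from 14 without *Ifnar1*-/- M1 to 50 without Wt M1, with 28 without Wt M2, 48 without *Ifnar1*-/- F1 and 31 without *Ifnar1*-/- F2.

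The lists of genes named for interferon signaling, energy metabolism and transmission had no gene past the threshold by genotype in NP nuclei, in edgeR or DESeq2. For each list the median log2 fold change is given, beside 0.01 for all 9329 genes. Of 12 type I interferon receptor and signal genes 6 could be tested, with a median of -0.15 and 0 at an unadjusted p under 0.05, and the kinase gene *Jak1* was the most abundant. Of 56 interferon response genes 44 had UMIs in NP nuclei and 4 could be tested, *Adar*, *Stat2*, *H2-D1* and *B2m*, with a median of -0.12 and 0 at an unadjusted p under 0.05. The 56 genes in Wt summed to 294 ± 39.0 CPM (SD, n = 4), against 270.0 ± 25.9 (SD, n = 4) in *Ifnar1*-/-, most of it *Adar*. A further 12, among them *Rsad2*, *Usp18*, *Oas1a*, *Cxcl10* and *Ifi44*, had 0 UMIs, so a change in them was not detectable at this depth.

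The 12 mitochondrially encoded genes tested had a median of 0.42, with 10 positive and 0 at an unadjusted p under 0.05, and *Ifnar1*-/- M2 had the highest sum (9157 CPM, against 1613 to 5212 in the other mice). The 65 nuclear oxidative phosphorylation genes tested had a median of 0.05 and 1 at an unadjusted p under 0.05. Of 31 genes of pyruvate metabolism and the tricarboxylic acid cycle 25 were negative, with a median of -0.08 and 0 at an unadjusted p under 0.05. The medians were -0.03 for 23 glutamate receptor genes, 0.07 for 43 potassium channel genes and 0.07 for 64 guidance and adhesion genes, and 0, 2 and 8 of these genes had an unadjusted p under 0.05. Over all 9329 genes 253 did. The 8 include *Tenm3* (0.58), a teneurin gene, and *Ntng1*.

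Among 27 neuromodulator receptor genes tested the median was 0.21, with 2 at an unadjusted p under 0.05, *Htr2c* (0.41) and *Htr7* (0.73). For 35 transcription factor genes it was -0.01 (2 genes), for 8 immediate early genes -0.01 (0 genes) and for 13 familial Parkinson disease genes -0.05 (1 gene, *Vps13c*, -0.35). The 11 NP markers tested had a median of -0.01 with 2 at an unadjusted p under 0.05, *Slc17a8* (-0.82) and *Cpa6* (0.69). This list holds *Tshz2* and *Vwc2l*, which had selected the nuclei, so its median is a description only. No list thus held a gene that passed, and at this depth that does not show that their levels were the same.

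**Figure D4:**
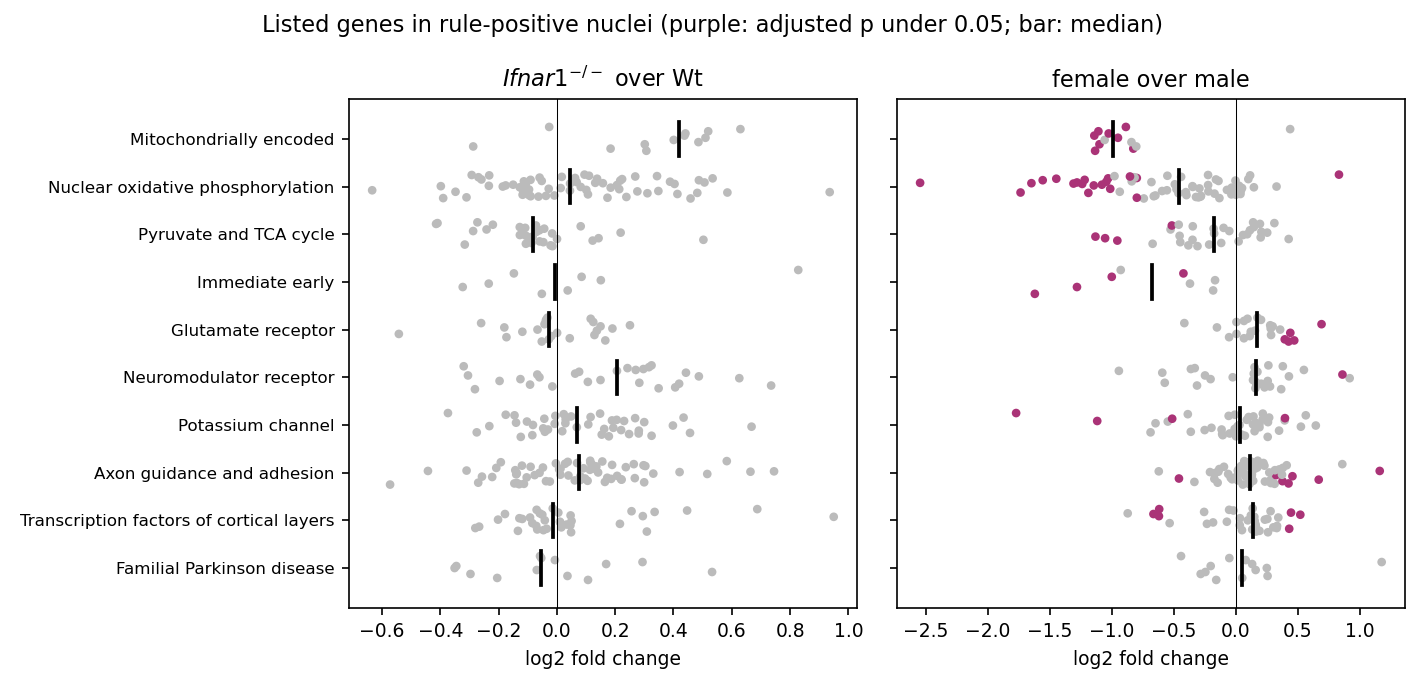
Log2 fold changes of the tested genes of each list in NP nuclei by genotype (left, *Ifnar1*-/- over Wt) and by sex (right, female over male), with 1 dot per gene, a bar at the median and genes past an adjusted p of 0.05 in purple. The mitochondrially encoded genes have a median of 0.42 by genotype and -0.99 by sex.

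The sexes differed far more than the genotypes. With genotype in the model, 1098 of 9329 genes (11.8%) passed in edgeR, 455 higher and 643 lower in females, and DESeq2 called 565. The labels give no batch, so a batch shared by the mice of a sex cannot be told apart from sex. The X-linked *Xist* and *Tsix*, whose loci overlap on opposite strands, were high in the 4 females. *Xist* had 2511 UMIs in females and 1 in males, a ratio of 2687 (95% counting interval 482 to 106181), and the Y-linked *Eif2s3y* and *Kdm5d* had 0 in females and 433 and 179 in males, at least 135-fold and 55.8-fold lower against the same floor. The libraries thus matched their labelled sex.

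Of autosomal genes, *Cck*, which encodes the neuropeptide cholecystokinin, stood at 57.5, 26.3, 66.7 and 62.7 CPM in the females (Wt F1, F2, *Ifnar1*-/- F1, F2) and at 259, 316, 385 and 249 in the males in that order of genotypes, which is -2.44 on the log2 scale (adjusted p = 1.11e-07 by edgeR). *C1qtnf4* (36.3 CPM in females, 268 in males), *Ssbp4* (8.93 and 113), the ferritin heavy chain gene *Fth1* (28.0 and 191) and the apolipoprotein gene *Apoe* (6.96 and 39.6) were lower in females too. Among genes higher in females *Gm44511* had 781 CPM against 222 (log2 fold change 1.91), and it overlaps *Klrb1b* and *Klrb1c* on the same strand, so its UMIs are uncertain. *Cck* and these genes were called in the core as well.

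Many mitochondrially encoded and oxidative phosphorylation genes were lower in females. In other glutamatergic nuclei the mitochondrially encoded share of UMIs was lower in females too. It was 0.153%, 0.236%, 0.321% and 0.126% in females (Wt F1, F2, *Ifnar1*-/- F1, F2). In males it was 0.388%, 0.490%, 0.344% and 0.868% in that order of genotypes. Whether the quality of the nuclei lay behind this was not tested. Of 12 mitochondrially encoded genes 8 were called, all of them lower, the list had a median of -0.99, and *mt-Co3*, a subunit of complex IV, stood at 617 ± 263 CPM (SD, n = 4) in females and 1328 ± 481 (SD, n = 4) in males. Of 65 nuclear oxidative phosphorylation genes 18 fell, with *Cox5a* at -1.65 and the ATP synthase gene *Atp5a1* at -1.22, 1 rose (*Atp5o*, 0.83), and the median was -0.46. In pyruvate metabolism and the tricarboxylic acid cycle 4 of 31 fell, *Ldha*, *Pdk1*, *Pdp1* and *Mdh1*, and this 12.9% is close to the share over all genes. Of 8 immediate early genes 4 fell, *Junb* (-1.62), *Egr3* (-1.28), *Nr4a1* and *Homer1* (-0.42). These counts stand beside 11.8% of all genes in edgeR, and DESeq2 called 0, 11, 2 and 2 genes of the 4 lists, so the call for mitochondrially encoded genes rests on edgeR alone. Of the marker lists of other cell types, 2 of 3 microglial genes tested were called by edgeR and DESeq2, *P2ry12* higher (0.85) and *C1qa* lower (-2.13) in females, the 1 layer 6b gene tested, *Ctgf*, was lower by both tools (-1.45), and *Adarb2* of the GABAergic list was higher by edgeR alone, while 0 of 2 oligodendrocyte genes were called by either tool and their sums overlapped between the sexes. The part of RNA from other cells in the sex calls was not tested.

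Genes of transmission and adhesion were called in both directions, mostly near or below the 11.8% of all genes, so these counts show nothing particular to most of the lists. Of 23 glutamate receptor genes 5 (21.7%) were called and higher in females, among them *Gria1* (0.42), *Gria2* (0.47), *Gria3* (0.39) and *Grin3a* (0.44), and of 64 guidance and adhesion genes 7 (10.9%) were called, 6 of them higher, with *Plxna4* (0.38), *Efna5* (0.46) and *Robo2* (0.32), and *Epha5* was lower (-0.46). Of 43 potassium channel genes 4 (9.30%) were called, of which *Kcnn2* (0.40) rose and *Hcn2* (-1.77), *Kcnk2* (-1.12) and *Kcnmb4* (-0.51) fell. Of 27 neuromodulator receptor genes 1 (3.70%) was called, the histamine receptor gene *Hrh3* (0.86), which rose. Of 35 transcription factor genes 6 (17.1%) were called, of which *Ldb2* (0.44), *Sox5* (0.43) and *Lmo3* (0.52) rose and *Lmo4*, *Zfp804b* and *Nr4a3* fell. *B2m* (-0.89) was the one interferon response gene of 4 tested that fell in females, in edgeR and not in DESeq2, and *Adarb2*, called in all members (1.62), was at 0.01 in the core. DESeq2 called 4 of the glutamate receptor genes, 4 of the guidance and adhesion genes, 3 of the potassium channel genes and 5 of the transcription factor genes. The number of genes called by sex went down to 541 in the core and 601 without *Ifnar1*-/- M1.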

How the data were processed

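The cortex of 4 Wt and 4 *Ifnar1*-/- mice was profiled by snRNA-seq, and the authors deposited raw UMI counts per gene and barcode from Cell Ranger with unspliced reads counted on mm10. Kept nuclei had 200 to 6000 genes, over 1000 UMIs and under 10% mitochondrially encoded UMIs. UMIs were summed per mouse over NP nuclei and tested with edgeR 4.0.16 (TMM, filterByExpr), limma 3.58.1 or DESeq2 1.42.0 in R 4.3.3, adjusted by Benjamini-Hochberg over all genes tested, on scripts checked on simulated data. Neighbors (30 components of 2000 variable genes) used scikit-learn 1.9.0 and Scrublet scanpy 1.11.5 in Python 3.11.15. Layer 6 CT nuclei had at least 8 *Hs3st4* and 4 *Foxp2* UMIs, and at most 3 of *Tshz2* and 1 of *Cux2*. Members and gene lists were chosen with earlier results of these data known.

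Named by rule were genotype genes past an adjusted p of 0.05 with the 10 next by unadjusted p over 20 CPM, up to 15 sex genes per direction by log2 fold change, up to 20 genes that differ between classes, and the 30 highest and 15 lowest ratios to other nuclei over 50 CPM. Same-numbered mice deviated together from their genotype means (correlations 0.283, 0.377, 0.433 and 0.235 for F1, F2, M1 and M2). The numbers carry sex, and around genotype and sex means the correlations were -0.0402 for F1 and F2 and -0.0737 for M1 and M2. Same-numbered mice thus shared no deviation beyond that of their sex. With 2 mice per sex and genotype, F1 and F2 give the same value by construction, as do M1 and M2. Alternatives were left-out mice, other tools and filters, other conditions for members, sex as a covariate and a replicate block.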

Additional observations from a re-analysis of the deposited data

Results flagged for a closer look

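In 46 groups of 4 mice, 4 had a mouse far from the rest, where about 1 in 20 would by chance. These were the NP share of glutamatergic nuclei in Wt F1 (3.72%) and *Ifnar1*-/- F2 (4.23%), *Cntfr* in Wt F1 (145 CPM) and *Rasgef1b* in Wt M1 (157 CPM). What set these mice apart was not tested.

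The genotype effect differed between NP nuclei and other glutamatergic nuclei for 17 genes at an adjusted p under 0.05 (edgeR with Benjamini-Hochberg). In log2 units the effect in NP nuclei was higher by 1.00 for 4930578G10Rik, 0.92 for *Gm12394*, 0.64 for *Gm2163*, 1.76 for *Megf11*, 0.70 for *Zfp804b*, 0.60 for *Pcdh15*, 0.58 for *Ntng1* and 0.58 for *Gm15398*. It was also higher by 0.54 for *Rasgef1b*, 0.51 for *Dgkg*, 3.09 for *Gm10635*, 2.62 for *Pkp2* and 3.06 for *Prph*. The difference was negative for *Cntfr* (-0.97), *Mgat4c* (-0.40), *Lrrc4c* (-0.35) and *Ebf1* (-3.72). *Ebf1*, *Gm10635*, *Pkp2* and *Prph* rest on few UMIs, those of *Ebf1*, *Gm10635* and *Prph* mostly from 1 or 2 mice, and *Gm15398* lies within *Pcdh15*, so this pair may count as 1. Of the 17 genes, limma on the log2 ratio per mouse called only the 4 of chromosome 4, and edgeR in the core called 8. Against nuclei with layer 6 CT markers edgeR called none of these 4 genes of chromosome 4.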

How the results depend on the processing

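The filter on low counts left 9329 genes tested by genotype, so genes with fewer UMIs were not tested there. Of the 9 genotype genes, *Gm12576*, *Gon4l* and *Gm43713* kept their call in all alternatives that could test them. Over the 9 genes 135 of 163 values kept their call and 28 lost it, with 0 reversed. Of the 30 sex genes 320 of 327 values kept it, and of the 17 genes that differ between classes 169 of 226 did. The cause was not tested where a value moved.

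The difference in NP share was -0.0925 percentage points with *Fezf2* required, -0.0358 in the core, 0.402 with nuclei thinned to 4000 UMIs, and 0.243 and 0.0749 with at least 5 and 12 *Tshz2* UMIs, and ran from -0.130 to 0.326 with each mouse left out. The difference in median UMIs ran from -1217 to 690.5, and was 457.6 without Wt F1 and 690.5 without *Ifnar1*-/- F1. That in the mitochondrially encoded share ran from -0.0440 (without *Ifnar1*-/- M2) to 0.207, and the *Ifnar1* log2 fold change from -0.00275 without *Ifnar1*-/- M1 to 0.39 without *Ifnar1*-/- M2.

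The number of genes called by genotype was 21 without a filter on low counts, 3 in the edge and 6 to 8 with each mouse left out. The replicate block called 13 with the 9 among them, and beyond *Megf11* and *Gm12394* it changed no other call of a named gene. By sex 565 genes were called with DESeq2, 541 in the core and 601 to 1316 with each mouse left out. The genes that differ between classes numbered 29 with class by sex added, 33 without a filter, 6 against layer 6 CT nuclei, 33 in the core (8 of the 17 among them, so 9 lost their call), 4 and 8 with limma on all and core members, and 14 to 50 with each mouse left out. The core, the edge and limma were added after the data had been seen.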
